A study of Drosophila melanogaster with 2 samples.

Results

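Promoters at which annotated protein-coding genes start on 1 strand only were examined for binding of CG12236, a Drosophila melanogaster protein with a BTB domain and zinc fingers. In the optimal list by irreproducible discovery rate (IDR, a filter on agreement between replicates) on the dm6 genome, 1100 peaks had their summit within 500 bp of an annotated protein-coding start and 1326 did not. At 722 of the 1100, or 29.8% of the whole list, every start in that window lay on the same strand. These 722 one-strand peaks are described here, and the 378 peaks at divergent promoters, where genes on opposite strands start within 500 bp of the summit, serve for comparison. A second comparison set was 793 one-strand regions found by the same rule among the next regions of the ranked list, down to rank 5000.

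Chromatin was prepared from whole embryos, 0 to 24 h old, males and females pooled, of the strain CG12236-GFP. This strain carries a transgene for CG12236 with GFP at its C terminus (CG12236-eGFP), and both replicates come from 1 donor line. The chromatin was sonicated to 200 to 800 bp and immunoprecipitated with an antibody against GFP. The labels give 1 group with biological replicates 3 and 1, and no sample with another genotype, age or treatment, so no comparison between conditions was possible. A whole embryo mixes all tissues and stages, and binding in few cells cannot be told apart from weak binding in many. The read depth of each list is unknown. The signal printed for a peak was computed by the authors, ranks peaks within a list, and is on a scale not given in the sources used here.

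As background, a promoter is the stretch around a start at which RNA polymerase II and the general transcription factors assemble, and transcription factors bind mostly just before it. Many fly genes lie head to head with a neighbour and share 1 stretch of open chromatin, whereas a one-strand promoter belongs to starts that point the same way. Genes with several starts can use them in different tissues or at different times, so a later start often lies inside the gene, in an intron of its longer transcripts. BTB zinc finger proteins form a large family in flies, with members such as GAGA factor (Trl) and lola that bind promoters and regulatory elements.

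The sequences at the strongest peaks show what lay under the summits on either side of a start. Shown are 3 upstream and 3 downstream peaks of high signal; some peaks as strong or stronger are not shown. Each is given from the Release 6 genome (dm6), 5′ to 3′ on the strand of its gene, and the capitals mark the 11 bases centred on the summit. CG14100 was read from chr3L:19590571-19590651, minus strand, with the summit 87 bp upstream of the start. Ugalt, a transporter of UDP-galactose into the Golgi, was read from chrX:2703849-2703929, minus strand, with the summit 37 bp upstream. The window at ph-p, a Polycomb group gene, is chrX:2137306-2137386, minus strand, with the summit 491 bp upstream of a later start. The downstream windows are chr3R:31404641-31404681, minus strand, for PNPase, a mitochondrial RNA-degrading enzyme, chr2L:21794936-21795016, minus strand, for CG31612, and chrX:11818535-11818615, plus strand, for rudhira, with summits 79, 471 and 238 bp downstream of their starts.
CG14100: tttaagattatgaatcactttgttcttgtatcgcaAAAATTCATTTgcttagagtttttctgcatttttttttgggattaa
Ugalt: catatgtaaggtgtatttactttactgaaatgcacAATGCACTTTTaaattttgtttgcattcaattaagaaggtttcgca
ph-p: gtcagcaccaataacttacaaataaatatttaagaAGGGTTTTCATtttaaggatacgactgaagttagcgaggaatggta
PNPase: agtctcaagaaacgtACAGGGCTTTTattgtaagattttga
CG31612: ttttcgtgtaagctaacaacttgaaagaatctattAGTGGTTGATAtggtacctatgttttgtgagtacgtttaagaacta
rudhira: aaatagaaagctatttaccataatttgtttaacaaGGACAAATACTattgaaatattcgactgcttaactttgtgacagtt
Of 10 promoter words searched on both strands, only CGATA lay in the CG14100 window, only the initiator core TCAGT in the windows of Ugalt and ph-p, and none in the 3 downstream windows as printed, of which that of PNPase is the shortest. The words at CG14100, Ugalt and ph-p read on the strand opposite the gene, so they are printed as TATCG and ACTGA. Within 100 bp either side of the summit, the windows used for the counts of words further on, all 3 downstream peaks held the initiator core, CG31612 also the E-box CAGCTG and rudhira also CACTGTGC. The initiator core is common in such windows, at 35.6% of all one-strand peaks, 34.7% of downstream ones and 46.0% of annotated one-strand starts.

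Most one-strand peaks sat just before the start. The summit lay upstream of the nearest start at 577 of 722 peaks (79.9%, 95% interval 76.8 to 82.7), downstream at 144, and exactly on it at 1. The median position was −135 bp, where a minus sign means upstream, with quartiles of −247 and −25.25 bp. Counted in steps of 100 bp, the second step before the start held most peaks (179), the first before it held 153, and the first after it 62.

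**Figure D1:**
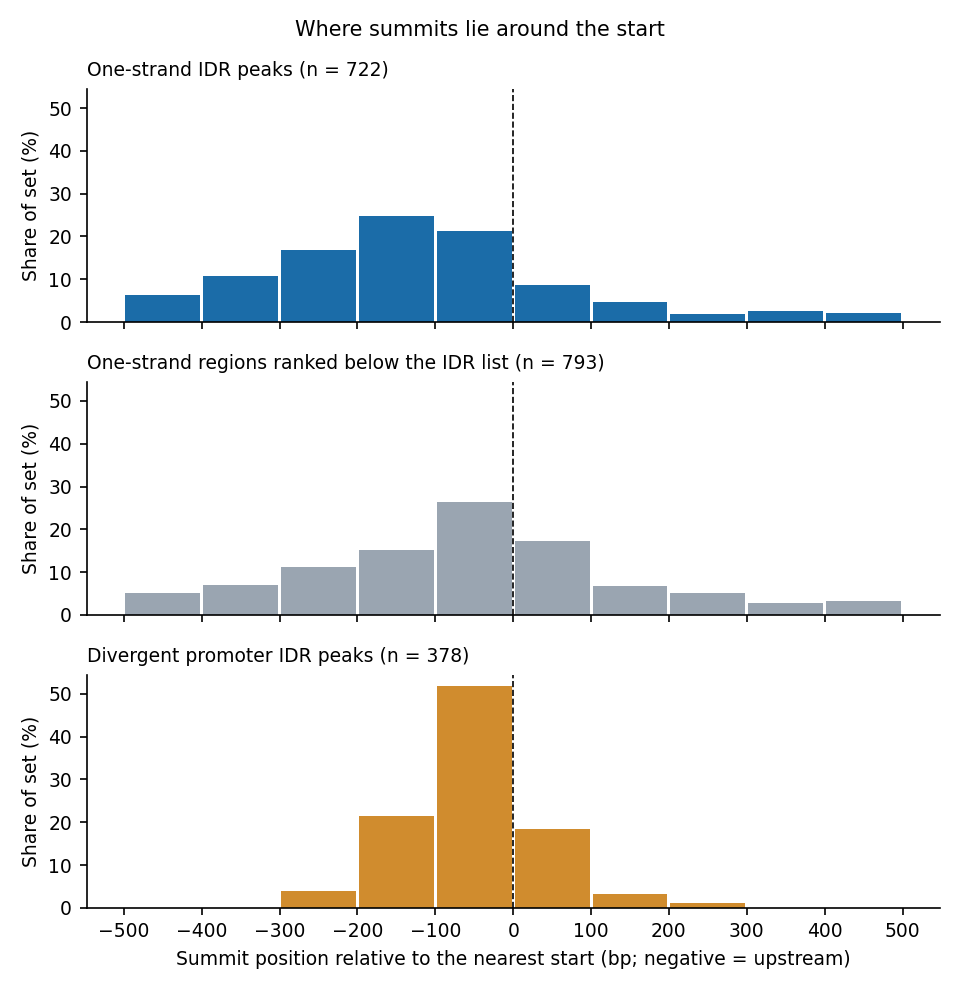
The x axis is the position of the summit in bp from the nearest protein-coding start, negative for upstream, in intervals of 100 bp, and the y axis is the percent of the set in each interval. The 722 one-strand peaks stand above the 793 lower-ranked one-strand regions and the 378 divergent promoter peaks; 24.8% of one-strand peaks fell between 200 and 100 bp upstream, while the other two sets were fullest in the 100 bp before the start.

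The upstream lean was larger among the stronger regions. Among the 793 lower-ranked one-strand regions, 514 summits lay upstream (64.8%, 95% interval 61.4 to 68.1), and their median position was −51 bp. The odds ratio of the upstream shares was 2.16, with an adjusted p of 2.2e-10 by a two-sided Fisher's exact test over 8 comparisons. It held in each replicate's own list: the upstream share was 74.97% of 767 one-strand regions in the top of replicate 1, as many regions as the IDR list has, against 56.0% of 871 in the next ranks, and 79.2% of 716 in the top of replicate 3, against 63.6% of 755. Over all 5952 one-strand regions of the pooled list outside the IDR list, 48.25% were upstream and the median position was 7 bp downstream.

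One-strand peaks also stood further from the start than the lower-ranked regions nearest to them in rank. A summit lay within 100 bp of a start at 215 one-strand peaks (29.8%, 95% interval 26.6 to 33.2), against 350 of the 793 lower-ranked regions (44.1%, 40.7 to 47.6), with an odds ratio of 0.54 and an adjusted exact p of 2.3e-08. Set against all 5952 lower regions of the pooled list, of which 33.05% lay within 100 bp, the odds ratio was 0.86 and the adjusted exact p was 0.125. At divergent promoters 266 of 378 summits lay that near (70.4%), but the rule that separates the classes uses the same distances. A divergent summit has starts on both strands within 500 bp, and its position is taken from the nearest of them. Where such a summit lies between 2 divergent starts, it is upstream of both. The share within 100 bp is therefore given as a description. The same rule bears on the upstream share, so the test of it cannot compare the 2 classes on equal terms. In upstream share the one-strand and divergent peaks did not pass the test (79.9% against 77.25%, interval 72.8 to 81.2; adjusted exact p = 0.498), and the share was 74.97% against 75.8% in the top of replicate 1 and 79.2% against 78.6% in the top of replicate 3.

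The 2 replicates placed the summits alike where each had a region near the pooled summit. The IDR list itself selects for agreement, and only replicate summits within 200 bp of the pooled summit were matched, which limits the differences. A region of replicate 3 had its summit within 200 bp of the pooled summit for all 722 peaks, and a region of replicate 1 for 720. The summits of the replicates differed by a median of 27.5 bp, and by 89 bp or less in 90% of peaks. Both put the summit upstream at 553 peaks and both put it downstream at 130, and 94.9% kept their side. Among the 610 peaks over 50 bp from the start, 604 kept it (99.02%). These differences are small beside the quartile range of the positions. The summit was at the midpoint of the interval at 564 peaks, and 559 had the same width of 424 bp.

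**Figure D2:**
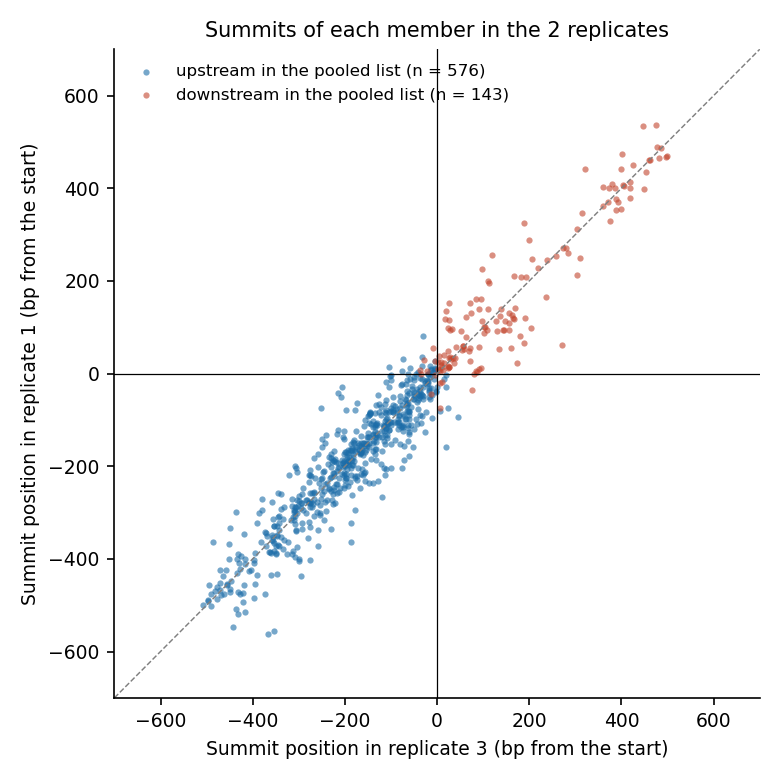
Each point is 1 one-strand peak found in both replicates, with the summit position in replicate 3 on the x axis and in replicate 1 on the y axis, both in bp from the start of the nearest gene and negative for upstream; colours give the side in the pooled list, and the dashed line marks equal positions. The peak with its summit on the start is left out. The points follow that line, with a median difference of 27.5 bp, and 553 lie in the lower left field, upstream in both.

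Peaks upstream of the start were the stronger ones. The strongest 25% of the IDR list held 180 of the 577 upstream peaks (31.2%, 95% interval 27.55 to 35.1) and 26 of the 144 downstream peaks (18.1%, 12.6 to 25.1), with an odds ratio of 2.06 and an adjusted exact p of 0.00377. The odds ratio was 2.93 with the strongest regions of replicate 1 alone and 2.03 with those of replicate 3 alone, while with a promoter distance of 1000 bp it was 1.20 (adjusted exact p = 0.452), and within the stronger 50% of the list it was 1.45 (adjusted exact p = 0.451). In replicate 3 the median signal was 71.9 upstream, against 59.15 downstream. In replicate 1 the medians were 43.3 upstream and 41.6 downstream, and the interquartile ranges of both sides overlapped in each replicate. Among the 207 one-strand peaks of the strongest 25%, 87.0% lay upstream and the median was −184 bp, compared with 77.1% and −111 bp for the other 515.

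**Figure D3:**
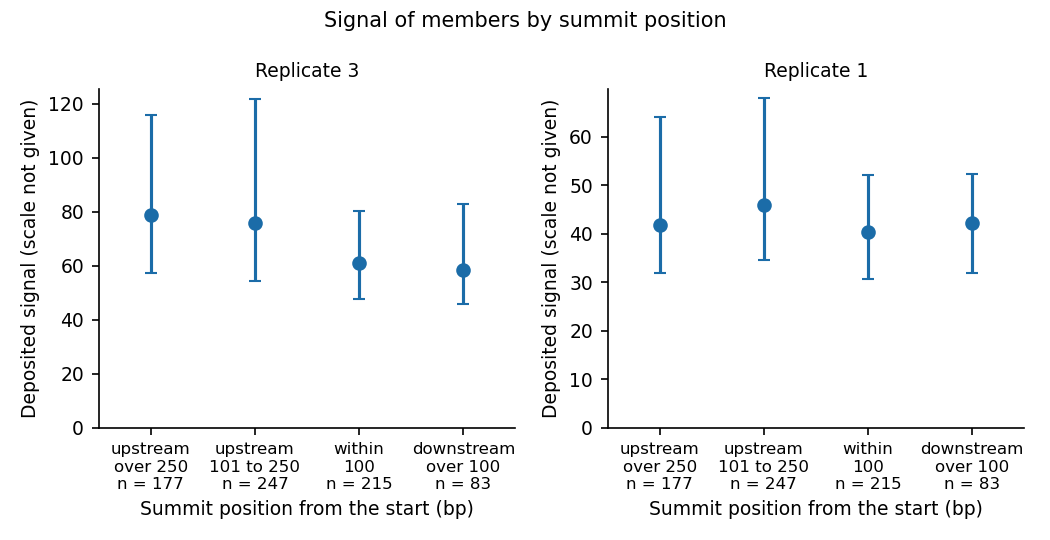
Points are the median signal of one-strand peaks and bars the quartiles, by position of the pooled summit from the start in bp, with replicate 3 on the left and replicate 1 on the right. The y axis is the authors' signal, on a scale not given, so its values are not compared between the replicates. In replicate 3 the median was 78.8 for summits over 250 bp upstream and 58.5 for those over 100 bp downstream, and in replicate 1 it was 41.8 and 42.2.

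The annotation differed on the 2 sides, as the position of the summit requires. Of the 577 upstream summits, 324 lay between genes (56.15%), 174 in an intron of the gene they preceded (30.2%), 39 in a 5′ untranslated region (UTR) of an overlapping transcript, 32 in an intron of another gene and 8 in a 3′ UTR. Of the 144 downstream summits, 103 lay in a 5′ UTR (71.5%), 39 in an intron and 2 in a coding exon. The nearest start on the opposite strand was a median of 4248 bp away and never closer than 504 bp. At 100 peaks it lay between 501 and 1000 bp away, and without those the upstream share was 82.3% of 622. A non-coding transcript started on the opposite strand within 500 bp at 34 peaks, and without them the share was 79.8% of 688.

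The 10 strongest one-strand peaks show the range of these positions. The strongest lay 197 bp upstream of the third start of px (plexus, needed for wing vein patterning), with a signal of 354.4 in replicate 1 and 700.2 in replicate 3. CG14100 followed with 337.1 and 687.3 in the same order, and Ugalt with 258.2 and 511.8. The peak at ph-p, which encodes a subunit of Polycomb repressive complex 1, had signals of 270.5 in replicate 1 and 469.6 in replicate 3. PNPase, at 234.9 and 476.8, was the only one of the 10 with its summit downstream of the start. The others were CG1888, gish (a casein kinase I), mRpL41 (a protein of the large mitochondrial ribosomal subunit), CG31145 and larp (an RNA-binding regulator of translation), with pooled signals of 699.1 down to 522.4. The lowest rank of any of them was 37 in replicate 1 and 27 in replicate 3, and 6 of the 10 were nearest to a start that was not the first of its gene.

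Strong downstream peaks lay in 5′ UTRs or in introns. At PNPase, GstE13 (a glutathione S-transferase), CAH3 (a carbonic anhydrase), CHES-1-like (a forkhead transcription factor) and ph-p the summit lay in the 5′ UTR, between 51 and 392 bp from the start. Summits lay in an intron at CG31612 (471 bp), bchs (blue cheese, which acts in autophagy; 439 bp), wun (wunen, a lipid phosphatase that guides germ cells; 389 bp), Ptp4E (a receptor tyrosine phosphatase; 373 bp) and rudhira (238 bp). In replicate 1 and replicate 3 the summit at CG31612 lay 466 and 482 bp downstream, at bchs 450 and 426 bp, and at wun 441 and 399 bp. Both replicates thus placed these 3 summits far downstream. CG12236 itself had a one-strand peak (chrX:5907895-5908318) at the weak end of the list, with a signal of 80.4 (rank 1949). Its summit lay 28 bp upstream of the only start in the pooled list, 4 bp downstream in replicate 1 and 42 bp upstream in replicate 3, so its side of the start was not settled.

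Alternative starts held many of the peaks, where any annotated start after the first of its gene counts as later. Some lie close to the first, as at Hsp83, whose 2 starts are no more than 500 bp apart. The nearest start was not the first of its gene at 269 of 722 one-strand peaks (37.3%, 95% interval 33.8 to 40.8), against 290 of 793 lower-ranked regions (36.6%, 33.3 to 39.98), a difference that did not pass the test (odds ratio 1.03, adjusted exact p = 0.79). In the top of replicate 1 alone the odds ratio was 1.33 (adjusted exact p = 0.0141). At a promoter distance of 200 bp, 26.1% of one-strand peaks were nearest to a later start. The annotation has 19253 protein-coding starts of 13945 genes, and the share of later starts among them was not set against the peaks. Summits kept to the upstream side at both kinds of start: 213 of 269 at later starts (79.2%) and 364 of 453 at first starts (80.35%) lay upstream, with medians of −164 and −125 bp. The later starts made up 36.9% of upstream and 38.9% of downstream peaks (adjusted exact p = 0.79). Before a later start 174 of the 213 upstream summits lay in an intron of the gene itself and 39 in a 5′ UTR, whereas before a first start 324 of 364 lay between genes.

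When starts of a gene over 500 bp apart were counted as separate clusters, genes with more clusters held a one-strand peak more often. The share was 3.18% of 11839 genes with 1 cluster, 10.6% of 1458 with 2, 20.55% of 399 with 3 and 32.1% of 249 with 4 or more. A gene with more clusters also has more places at which to hold a peak. Per cluster, counting only clusters with no opposite start within 1000 bp, 7.38% of 2915 later clusters, 8.38% of 1361 first clusters and 4.18% of 7516 clusters of genes with 1 cluster held a peak. The lower-ranked regions gave 7.31%, 10.4% and 4.50% for the same kinds, so the pattern was not particular to the stronger peaks. Of the 317 genes with several clusters that held a peak, 173 held it at later clusters only, 115 at the first only and 29 at both.

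**Figure D4:**
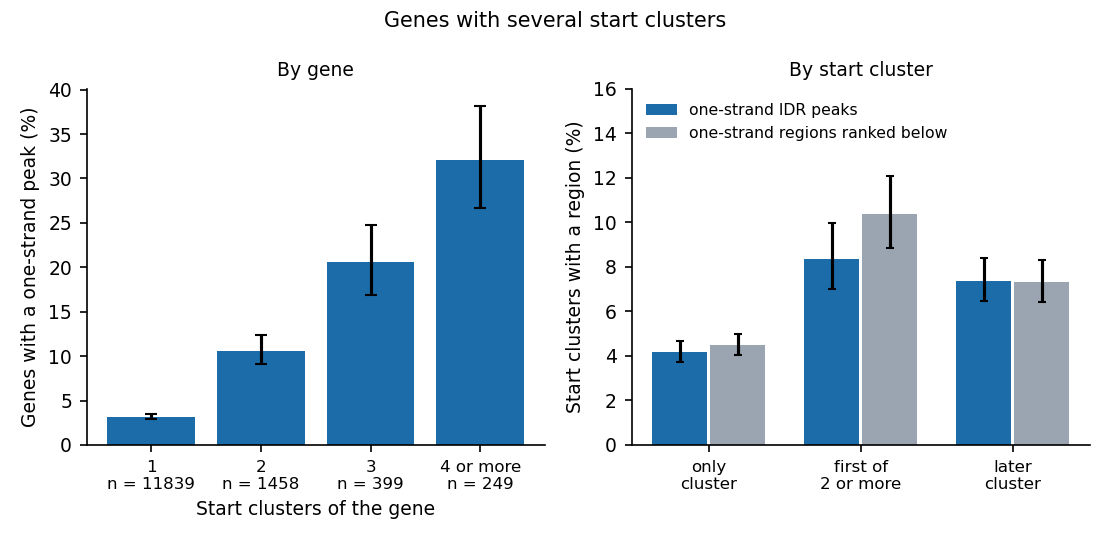
The left panel gives the percent of protein-coding genes with a one-strand peak by the number of start clusters of the gene, and the right panel the percent of clusters with no opposite start within 1000 bp that hold a one-strand IDR peak (blue) or a lower-ranked one-strand region (grey); bars are shares with 95% Wilson intervals. The share of genes with a peak was 3.18% with 1 cluster and 32.1% with 4 or more.

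In 44 genes 2 or more clusters held a peak, and in 21 of them 1 peak lay within 500 bp of all the held clusters. Ptpmeg2, a tyrosine phosphatase, had peaks at 4 of its 6 clusters. Its summits lay 108 bp downstream of the first start and 184, 167 and 238 bp upstream of starts in clusters 2, 4 and 5. In replicate 1 their signals were 48.2, 77.4, 86.3 and 64.8 in that order, and in replicate 3 they were 35.9, 139.8, 183.6 and 134. The weak peak at the first cluster was thus the only one downstream. Peaks stood upstream at 3 clusters each in larp (71, 159 and 330 bp), Rtnl1 (reticulon, which shapes the endoplasmic reticulum; 278, 152 and 275 bp) and dnc (dunce, a cAMP phosphodiesterase required for memory). At larp the signal was 76.9 at the first cluster, 141 at cluster 2 and 522.4 at cluster 5, and replicate 3 gave 51.8, 91.6 and 367.5 in the same order, as replicate 1 did with 24.8, 50.5 and 155.8. At spoon, an anchoring protein for protein kinase A, 3 clusters were held by 2 peaks. The ph-p gene had 2 peaks between its first and its later start, one 392 bp downstream of the first and the stronger one 491 bp upstream of the later.

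In all, 694 of 13945 protein-coding genes had a start within 500 bp of a one-strand peak (4.98%), 733 in the top of replicate 1 (5.26%) and 687 in the top of replicate 3 (4.93%). A single gene was in reach at 699 peaks and a pair of genes at 23. Genes known only by a CG number held a peak in 191 of 6097 cases (3.13%), and genes with a name of their own in 503 of 7848 (6.41%). The 26 gene lists below are read against the share of all genes, and since they were chosen with earlier results of these data known they are descriptions only. The class also depends on the distance used, because a wider window meets more opposite starts: the cytosolic ribosomal protein list had 45 genes with a one-strand peak at a distance of 200 bp, 29 at 500 bp and 16 at 1000 bp.

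**Figure D5:**
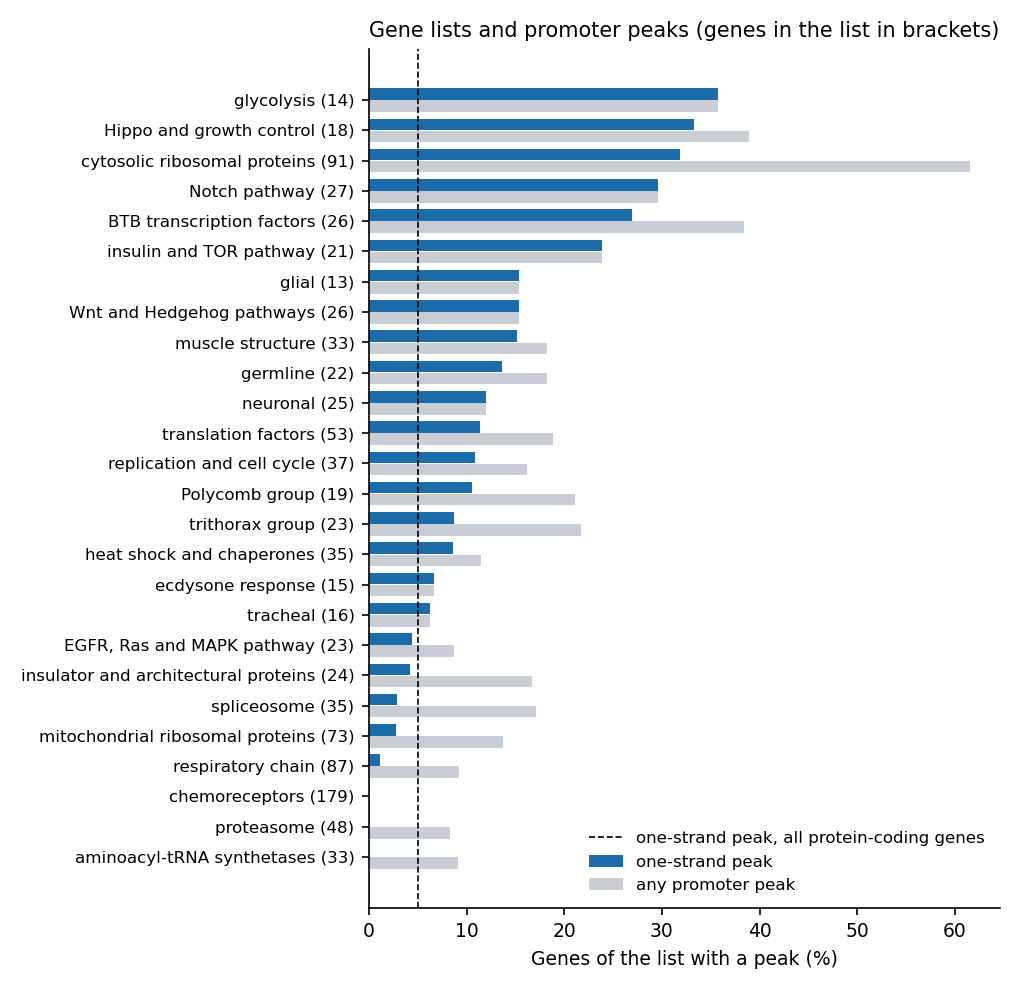
Bars give the percent of each gene list with a one-strand peak (blue) and with any promoter peak in the IDR list (grey), with the number of genes in brackets. The dashed line is the 4.98% of all protein-coding genes with a one-strand peak and applies to the blue bars only. In one-strand peaks, glycolysis, Hippo, ribosomal protein and Notch genes stand at the top, with shares of 35.7%, 33.3%, 31.9% and 29.6%, and proteasome, tRNA synthetase and chemoreceptor genes at 0.

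Genes of protein synthesis differed widely. Of 91 cytosolic ribosomal protein genes, 29 had a one-strand peak (31.9%, 95% interval 23.2 to 42.0), and 56 had any promoter peak, divergent ones included. The share of all genes with any promoter peak was not counted, so counts that include divergent peaks have no such share beside them. Replicate 1 gave 27 and replicate 3 gave 28 in their own top lists, with 22 in both. Their summits sat close to the start, 20 upstream with a median of −17 bp, as at RpL24 (5 bp downstream, signals of 76.3 in replicate 1 and 165.4 in replicate 3), RpL23A (58 bp upstream, 94.3 and 121.7) and RpS10b (26 bp upstream, 85.9 and 120.5). Translation factors held a peak at 6 of 53 genes, in 4 cases within 50 bp of the start, among them eEF1gamma (summit on the start), eEF2 (3 bp upstream) and eEF5 (2 bp downstream). Mitochondrial ribosomal proteins did so at 2 of 73, mRpL41 and the much weaker mRpL4 (pooled signal 71.3, against 619). No aminoacyl-tRNA synthetase gene of 33 held one, with a 95% interval of 0 to 10.4% that takes in the 4.98% of all genes. With divergent peaks included, the counts were 10 of 53 translation factor, 10 of 73 mitochondrial ribosomal protein and 3 of 33 synthetase genes.

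Glycolytic enzyme genes held peaks at 5 of 14, all upstream of the start nearest to them, with a median of −223 bp. At Eno and Pgk that start was a later one of the gene. The same count stood in each replicate's top list, while a promoter distance of 200 bp left 2. The genes were Gapdh2 (chrX:15867844-15868120, 170 bp upstream, signals of 85.3 in replicate 1 and 177.2 in replicate 3), Hex-A, the hexokinase (121 bp, 73.5 and 145.6), Eno, Pgk and Ldh. The respiratory chain, which takes energy metabolism further in the mitochondrion, held 1 of 87 (RFeSP; 3 in the top of replicate 1 and 0 in that of replicate 3), the proteasome 0 of 48 and the spliceosome 1 of 35 (B52; 0 in the top of either replicate). Chaperones held 3 of 35, with summits upstream of Hsp83 (114 bp), Hsp26 (72 bp) and Hsp27 (138 bp).

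Signalling genes were held at higher shares than all genes in several lists. The Notch pathway had 8 of 27 genes (29.6%, 95% interval 15.85 to 48.5): the receptor N, the protease genes kuz and aph-1, the inhibitor numb, the coactivator mam, the co-repressor gro and the target genes E(spl)m3-HLH and E(spl)m7-HLH. At promoter distances of 200 and 1000 bp the Notch count was 5. The top list of each replicate gave 7 Notch genes, with 5 in both. At aph-1 the signal was 15 in replicate 1 (rank 10403) and 76.1 in replicate 3 (rank 943). The gro peak (chr3R:26042400-26042628) was the strongest at the Notch genes, 109 bp upstream of a later start with signals of 100.3 in replicate 1 and 194 in replicate 3. At the target genes E(spl)m3-HLH and E(spl)m7-HLH the summits of the strongest peaks lay 453 and 450 bp upstream. E(spl)m7-HLH also had a weaker one-strand peak with its summit 251 bp upstream (pooled signal 138.9, against 178.5). The Hippo growth control list had 6 of 18, including the kinase gene hpo, kibra, Mer and ex, which act upstream of it. The top lists of replicate 1 and replicate 3 gave 5 and 7 Hippo genes, with 5 in both. At dco, also among the 6, replicate 1 had no matched region. The insulin and TOR list had 5 of 21: InR, the receptor, Pi3K21B, a kinase subunit, and 3 restraining or downstream genes, Sesn, Thor and REPTOR. At hh, the Hedgehog ligand, the summit lay 136 bp upstream (80.3 and 84.3), and at sgg, the kinase shared by Wnt and Hedgehog signalling, 186 bp upstream of a later start (79.4 and 182.9). The EGFR, Ras and MAPK list had 1 of 23, spi, the main EGFR ligand, as against 4 in the top of replicate 1 and 2 in the top of replicate 3.

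Genes of chromatin and transcription gave unlike counts. BTB transcription factors, the family of CG12236, had 7 of 26 (lola, psq, Trl, tna, CG12236, lolal and bab2), and 3 of their summits lay upstream of the start nearest to them, at lola, psq and, with its side unsettled, CG12236. Polycomb group genes had 2 of 19, ph-p and Psc, trithorax group genes 2 of 23, Trl and Utx, and insulator proteins 1 of 24, Trl again. Lists of tissues and stages ran between 6.25% and 15.4%: muscle 5 of 33 (Msp300, sls, tin, if and Mef2), neuronal 3 of 25 (dnc, elav and Nrx-1), glial 2 of 13 (moody and Gli), germline 3 of 22 (bgcn, egl and Sxl), tracheal 1 of 16 (pyd), ecdysone response 1 of 15 (Eip75B) and cell cycle 4 of 37. None of 179 chemoreceptor genes held a one-strand peak. Several of these small counts moved with the replicate: the top lists of replicate 1 and replicate 3 gave 4 and 2 Polycomb group genes, 3 and 2 trithorax group genes, 3 and 3 insulator genes, 7 and 3 muscle genes, 3 and 2 glial genes, 2 and 1 tracheal genes, 2 and 1 ecdysone response genes, and 1 and 4 cell cycle genes.

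Short sequence words at the summits were counted as a description. The words shown are TATCGATA, the DNA replication-related element (DRE) of the factor Dref, and CACTGTGC, a word singled out in an earlier account of these data, so its share here is no independent evidence. One-strand peaks of high signal that hold each are given below, in the same orientation and genome as above, with the word in capitals. They were drawn from part of the one-strand peaks only, so stronger peaks that hold a word may not be shown. The DRE windows are chrX:13739439-13739496 at CG11151 and chr3R:29220106-29220163 at eEF1gamma, both plus strand, and the CACTGTGC windows are chr2L:4997721-4997756, minus strand, at Rtnl1 and chrX:13739595-13739637, plus strand, at CG11151, where both words flank 1 summit.
CG11151 DRE: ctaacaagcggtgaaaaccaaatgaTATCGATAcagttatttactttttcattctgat
eEF1gamma DRE: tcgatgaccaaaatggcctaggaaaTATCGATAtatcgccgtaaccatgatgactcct
Rtnl1: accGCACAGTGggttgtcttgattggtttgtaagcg
CG11151: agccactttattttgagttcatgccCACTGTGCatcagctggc
In the Rtnl1 window the word reads on the other strand, as GCACAGTG.

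In windows of 100 bp either side of the summit, with both strands searched, CACTGTGC was present at 41 of 722 one-strand peaks (5.68%, 95% interval 4.21 to 7.61), against 2.90% of lower-ranked regions, 2.38% of divergent peaks and 1.02% of windows at 14770 annotated one-strand starts. Windows shifted upstream of those starts by the median position of the peaks held it at 1.26%. It was present at 5.55% of upstream and 6.25% of downstream summits. The DRE was at 4.99% of one-strand peaks (3.62 to 6.83), against 11.1% of divergent peaks (8.33 to 14.7), 5.67% of lower-ranked regions, 4.38% of annotated starts and 3.07% of the shifted windows. GAGAGAG, the word of GAGA factor, was at 8.17% of one-strand peaks, against 2.12% of divergent peaks and 8.32% of lower-ranked regions. Annotated starts held it at 5.27% and the shifted windows at 7.78%. The one-strand share was thus near that of sequence upstream of starts in general. Within the one-strand peaks the word was at 9.36% of upstream and 3.47% of downstream windows. The E-box CAGCTG was at 10.7% of one-strand peaks, against 17.7% of divergent peaks, 13.1% of lower-ranked regions, 11.5% of annotated starts and 9.57% of the shifted windows. The word GGTCACAC of the factor M1BP was at 3.6%, against 4.50% of divergent peaks and 5.04% of lower-ranked regions. CGATA, which also lies within the DRE, was at 34.5%, against 43.9% and 35.2%, and the BEAF-32 core pair, which joins CGATA with a further copy, at 0.83%, against 1.85% and 0.50%. Annotated starts and the shifted windows held GGTCACAC at 3.8% and 1.35%, CGATA at 33.0% and 29.9%, and the BEAF-32 pair at 0.77% and 0.47%. The windows also differed in base composition, with a median GC content of 37.3% at one-strand peaks, 36.3% at divergent peaks, 40.8% at lower-ranked regions and 43.3% at annotated starts. Its part in these shares was not tested.

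At the start itself the initiator was more frequent at one-strand than at divergent peaks, but near its share at one-strand starts in general. Annotated divergent starts were not counted. The initiator core TCAGT lay within 5 bp of the nearest start at 114 of 722 (15.8%, 95% interval 13.3 to 18.6), against 3.97% of divergent peaks (2.42 to 6.44). The share was 13.1% at lower-ranked one-strand regions (10.9 to 15.6) and 13.85% at annotated one-strand starts. Within the one-strand peaks it was there at 17.3% with the summit upstream (14.5 to 20.6) and 9.72% with the summit downstream (5.88 to 15.7). TATAAA between 40 and 20 bp before the start was found at 2.77% of one-strand peaks, against 1.85% of divergent peaks and 7.8% of annotated one-strand starts. At the 28 peaks next to cytosolic ribosomal protein genes, none had TCAGT at the start, and 13 had the polypyrimidine words CTTTTC or CTTTCC within 10 bp of it (46.4%), which 1.86% of annotated one-strand starts have.

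The share of promoter peaks that were one-strand varied between the arms. On X 131 of 168 promoter peaks were one-strand (78.0%, 95% interval 71.1 to 83.6), on 3R 165 of 281 (58.7%, 52.9 to 64.3), and the annotated starts themselves were one-strand in 79.2% on X and 75.1% on 3R. Just inside the 500 bp limit stood peaks at amn (497 bp downstream), Dyro and CG5953 (both 496 bp upstream), and just outside it peaks at t-cup (501 bp upstream), for (502 bp upstream) and CG33725 (504 bp downstream). Of the 722 intervals 32 overlapped that of another one-strand peak, and 40 genes were nearest to 2 or more peaks, so the peaks are not all independent of each other. In strength the one-strand and divergent peaks did not pass the test, with 28.7% and 26.5% in the strongest 25% of the list (intervals 25.5 to 32.1 and 22.3 to 31.1; adjusted exact p = 0.639).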

How the data were processed

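Peaks and background regions were deposited by the authors as ranked lists on dm6, 30000 regions for each replicate and for both pooled, and an optimal IDR list, each made with 1 control alignment per the labels. The deposited signal of each region, on an unstated scale, was used only to rank and describe regions within a list; the summit came from the deposited offset. Not given in the sources used here: the caller, the IDR threshold and the number of reads. The dm3 lists were not used. Starts came from Ensembl release 115 (BDGP6.54), 19253 protein-coding starts of 13945 genes on 6 arms. The sequence was Release 6 from RefSeq, whose arm lengths contain every region.

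A region was one-strand if all protein-coding starts within 500 bp of its summit lay on 1 strand, and its position was taken from the nearest of them. Replicate summits were matched within 200 bp. Shares carry 95% Wilson intervals, which cover counting error only. Fisher's exact tests, two-sided, compared sets of regions, with p-values adjusted over 8 comparisons after Benjamini and Hochberg; regions are not replicates of a condition. Gene lists and words were counted without a test, and 2 listed symbols had no match. The members and lists were chosen with earlier results of these data known. Named genes were the 15 strongest members, the 10 strongest over 50 bp downstream, the 5 strongest at later starts, the 5 genes with most clusters held, up to 3 per list, the peaks at the distance limit and CG12236; further list members, and genes with a peak on both sides of a start, were named after their values were seen. Alternatives were other distances, 1 start per gene, non-coding starts, the stronger 50% of the list, each replicate alone, midpoints, all lower regions and a 50 bp limit. The sequence at 1 further strong upstream peak is not reported here. The scripts were tested on simulated data. Versions were pandas 2.3.3, scipy 1.17.1 and numpy 2.4.6 under Python 3.11.15, with plots by matplotlib 3.10.9.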

Additional observations from a re-analysis of the deposited data

How the results depend on the processing

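At a promoter distance of 200 bp the median position of one-strand summits was −67 bp, 56.11% lay within 100 bp of the start, 26.13% were nearest to a later start and 4.346% of genes held a peak; the odds ratio for later starts against lower-ranked regions was 0.86 (adjusted exact p = 0.316) and that for the strongest 25% against divergent peaks 0.68 (adjusted exact p = 0.0702), both turned round but not past the threshold. At 1000 bp 75% of summits were upstream, 19.79% lay within 100 bp, 5.536% of genes held a peak, and the odds ratio for the strongest 25%, upstream against downstream, was 1.195. With 1 start per gene 73.4% were upstream, the median was −105 bp and 3.894% of genes held a peak. The stronger 50% of the list had 379 one-strand peaks, 84.43% of them upstream, a median of −169 bp, 24.8% within 100 bp and 2.711% of genes. There the odds ratio of the upstream share against divergent peaks was 1.733 (adjusted exact p = 0.0317), a comparison that the rule for the classes itself affects. The strongest 25% did not pass between upstream and downstream there (1.449), and the odds ratio for later starts, upstream against downstream, was 1.159. A limit of 50 bp held 15.24% of summits, and against all lower pooled regions the odds ratio for the near share was 0.8591. With 1 replicate left out the upstream share was 74.97% to 79.19%, the share within 100 bp 28.63% to 35.33%, and the odds ratios were 0.9571 to 1.037 for the upstream share against divergent peaks, 0.9756 to 1.051 for the strongest 25% against divergent peaks and 1.113 to 1.327 for later starts against lower-ranked regions. Among the gene lists, a distance of 200 bp left 2 glycolysis, 5 Notch, 3 insulin and TOR, 1 muscle and 1 glial genes and gave 45 ribosomal protein, 3 spliceosome, 2 insulator and 1 aminoacyl-tRNA synthetase genes; 1000 bp left 16 ribosomal protein, 5 Notch, 0 mitochondrial ribosomal protein and 0 spliceosome genes and gave 4 glial, 4 EGFR and 3 respiratory chain genes. The upstream share against lower-ranked regions passed the threshold in every alternative run. In each case the cause was not tested. Only 1 group exists, so no paired analysis was possible because no groups share replicate numbers.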
